A study of Saccharomyces cerevisiae with 60 samples.

Results

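The genes described here are 10 genes of sphingoid base and ceramide metabolism, taken as a list of symbols and matched to locus tags through the R64 reference, out of 7126 features in the count tables. They are LCB1, LCB2 and TSC3 of serine palmitoyltransferase, its inhibitor ORM2, the sphingoid base kinases LCB4 and LCB5, LCB3 and DPL1, which remove sphingoid base phosphates, and the ceramidases YPC1 and YDC1. All 10 matched, and all 10 passed the filter on low counts. Poly(A) RNA of budding yeast (Saccharomyces cerevisiae, W303 background) was measured in 60 libraries that form 20 groups of 3. Every strain carried the Hsf1 anchor-away tag, with which rapamycin ties Hsf1, the transcription factor of the heat shock response, to a protein that leaves the nucleus. Double-loss cells were msn2Δ/msn4Δ and got rapamycin, MSN-deleted cells were msn2Δ/msn4Δ and got the solvent DMSO, Hsf1-depleted cells had intact MSN2 and MSN4 and got rapamycin, and wild-type cells had the tag, intact genes and DMSO. MSN2 and MSN4 encode related activators of the general stress response. Each of these 4 states was harvested unheated (25 °C) and at 4 heat conditions, namely 37 °C for 10 or 30 min and 42 °C for 10 or 30 min. Rapamycin and the loss of Hsf1 always went together and cannot be told apart.

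Serine palmitoyltransferase makes the first committed intermediate of sphingolipids, from which the sphingoid bases are formed, and Orm proteins hold the enzyme back. Sphingoid bases are joined to very-long-chain fatty acids to give ceramide, and ceramidases release them again. Free bases are phosphorylated by kinases, and the phosphates are either dephosphorylated or cleaved by a lyase, which is the way out of the pathway. In budding yeast sphingoid bases accumulate after heat and act as signals.

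The stretches upstream of both ceramidase genes are shown because YPC1 gave most of the called strain differences between deleted and intact MSN2 and MSN4, and its paralog YDC1 stands beside it for comparison. They are the reference strain's sequence (RefSeq, build R64, plus strand, 5′ to 3′). For YPC1 the stretch is chrII:595745-596044, from 370 to 71 bases before the coding start, and its capitals mark stress response elements (CCCCT, or AGGGG on the other strand), the site bound by Msn2 and Msn4. For YDC1 it is chrXVI:383165-383394, from 290 to 61 bases before the coding start, and its capitals mark a stress response element and pairs of inverted heat shock units (TTCNNGAA), the kind of unit bound by Hsf1.
YPC1: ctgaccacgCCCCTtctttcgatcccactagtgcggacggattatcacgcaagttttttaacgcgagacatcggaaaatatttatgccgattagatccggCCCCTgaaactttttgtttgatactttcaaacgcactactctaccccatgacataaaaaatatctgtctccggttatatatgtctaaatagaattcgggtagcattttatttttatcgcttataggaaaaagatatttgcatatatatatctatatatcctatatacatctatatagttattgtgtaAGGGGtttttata
YDC1: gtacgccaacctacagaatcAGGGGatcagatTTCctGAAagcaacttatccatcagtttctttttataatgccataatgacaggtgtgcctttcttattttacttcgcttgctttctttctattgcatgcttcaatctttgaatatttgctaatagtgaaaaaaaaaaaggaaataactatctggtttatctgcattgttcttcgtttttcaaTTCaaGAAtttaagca
YPC1 had 3 stress response elements in the 500 bases before its coding start, a number reached by 1.84% of 5986 such windows, and no pair of inverted heat shock units. YDC1 had 1 stress response element, with at least 1 in 34.1% of windows, and 2 pairs of inverted units, reached by 8.34%.

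Library totals ran from 3848210 to 10142858 counts with a median of 5938357, and levels are given as CPM, a gene's counts scaled by the library total times its TMM factor. MSN2 lay at or below 0.332 CPM and MSN4 at or below 1.49 CPM in the 30 libraries of deleted strains, against 99.3 to 433 CPM and 88.0 to 708 CPM in the 30 intact ones. HSF1 RNA lay between 62.7 and 442 CPM in the deleted strains and between 65.1 and 581 CPM in the intact ones. SIS1, an Hsf1 target added as a check after its values were known, had a log2 fold change at 25 °C of -3.48 in double-loss against MSN-deleted cells and -2.84 in Hsf1-depleted cells against wild type. In heat these differences ran from -6.40 to -1.21. They were smallest after 30 min at 37 °C, at -2.76 and -1.21 in the same order. The file names carry 6 set codes of 10 libraries each, and 3 codes occur in each MSN background, so set and deletion cannot be told apart when deleted and intact strains are compared. The paralogs LCB4 and LCB5, YPC1 and YDC1, and ORM1 and ORM2 share no stretch of 50 bases, the read length. Gene coordinates are those of build R64, as the count tables give them. In RNA from whole cultures, fewer cells expressing a gene and less RNA per cell cannot be told apart. Replicate 1 of MSN-deleted cells after 10 min at 42 °C, replicate 2 of double-loss cells at 25 °C, replicate 1 of Hsf1-depleted cells at 25 °C, replicate 2 of double-loss cells after 30 min at 37 °C and replicate 3 of wild type after 10 min at 37 °C stood farthest from their groups, with a root mean square log2 difference of 0.817 to 0.945 against a median of 0.489 over all libraries.

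Of the 10 genes, heat raised the ceramidase genes, the inhibitor gene ORM2 and the kinase gene LCB5. The serine palmitoyltransferase genes, LCB4, LCB3 and DPL1 had no called rise. A change was called where the log2 fold change reached 1 or -1 with an adjusted p below 0.05 (edgeR quasi-likelihood test, n = 3 per group, adjusted by Benjamini-Hochberg over 6070 genes). Over the 16 heat responses, each a heated group against the same state at 25 °C, 46 of 160 member values were called up and 10 down, beside 19.1% and 18.3% of all tested values. The 4 responses of a state share its 25 °C libraries, so these values are not independent. Rises came from YPC1 in 16 responses, ORM2 in 12, YDC1 in 12 and LCB5 in 6, and the falls from LCB1 in 6, LCB4 in 2, LCB2 in 1 and LCB3 in 1. TSC3 and DPL1 had no called heat response. By state, 9 of 40 values were called up and 3 down in double-loss cells (background 16% and 16.9%), 12 and 3 in MSN-deleted cells (15.4% and 14.5%), 12 and 4 in Hsf1-depleted cells (22.9% and 21.1%), and 13 and 0 in wild type (22.2% and 20.7%). The members' median log2 fold change in wild type was 0.45 after 10 min at 37 °C, 0.35 after 30 min at 37 °C, 0.26 after 10 min at 42 °C and -0.24 after 30 min at 42 °C, beside medians of -0.04, -0.01, -0.01 and -0.04 over all tested genes.

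**Figure D1:**
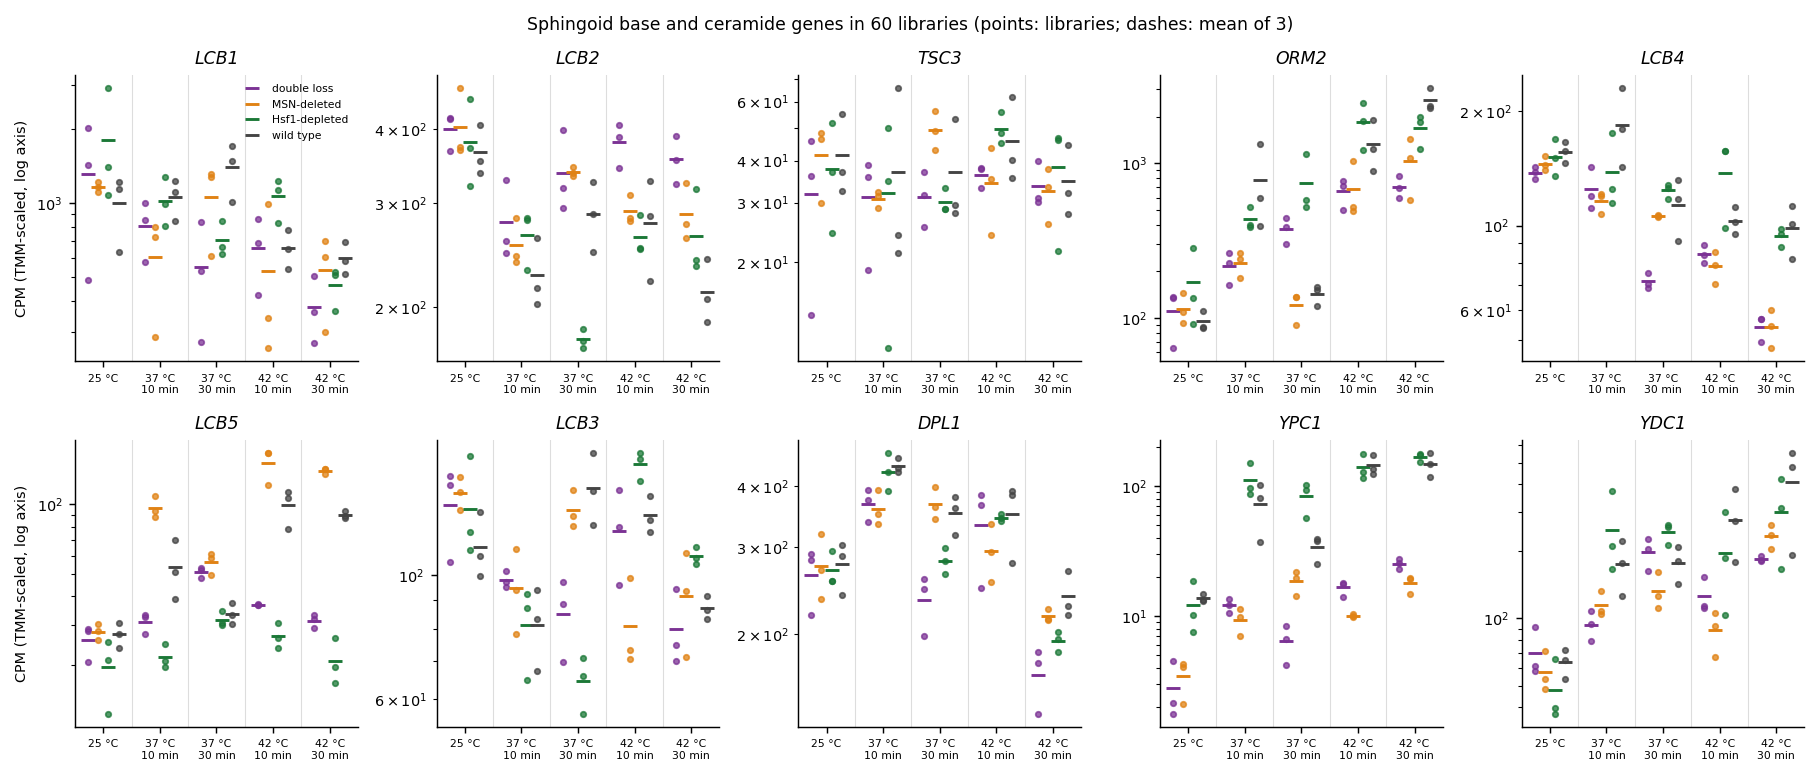
Level of each of the 10 genes in all 60 libraries, in CPM on a log axis, by condition and strain state (points are libraries, dashes the mean of 3). YPC1 of double-loss and MSN-deleted cells lies below that of Hsf1-depleted cells and wild type at all 5 conditions, and LCB5 at 42 °C is highest in MSN-deleted cells and low in double-loss and Hsf1-depleted cells.

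Per length of gene, the order of levels changed with heat. In wild type after 30 min at 42 °C ORM2 stood first at 3947 ± 690.2 CPM per kb (SD, n = 3), followed by YDC1 at 427 ± 199.8, LCB1 at 356 ± 53.9 and YPC1 at 156 ± 32.2 CPM per kb. In wild type at 25 °C LCB1 stood first at 596 ± 189.8 CPM per kb, followed by LCB2 at 217 ± 21.7 and TSC3 at 171 ± 49.4, and YPC1 and LCB5 were lowest at 14.4 ± 1.11 and 13.2 ± 1.64. At 25 °C the libraries of LCB2 and TSC3, of TSC3, DPL1 and ORM2, of LCB3 and LCB4, and of YPC1 and LCB5 overlapped. After 30 min at 42 °C those of YDC1 and LCB1 overlapped, those of YPC1 at 124 to 189 CPM per kb overlapped those of TSC3 at 114 to 184, DPL1 at 123.1 to 152 and LCB2 at 112 to 143, and those of LCB5 at 42.3 to 45.3 overlapped those of LCB4 at 43.5 to 60.2. The ORM2 libraries lay above those of every other member.

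No gene of serine palmitoyltransferase had a called heat rise, and LCB1 was called down in 6 of 16 heat responses. TSC3 (YBR058C-A, chrII:356324-356566, minus strand), a small activating subunit, had no adjusted p under 0.05 in any of the 64 comparisons, and its heat log2 fold changes lay between -0.43 and 0.39. Its counts were low, with a median of 217 per library, and its SE was near 0.39 on the log2 scale. LCB2 (YDR062W, chrIV:576474-578159, plus strand), the catalytic subunit, had a negative log2 fold change in all 16 heat responses, from -1.11 to -0.08, with an adjusted p under 0.05 in 11 of them and 1 call.

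That call was in Hsf1-depleted cells after 30 min at 37 °C, where LCB2 had 176, 184 and 171 CPM, against 373, 449.5 and 321 CPM in the same state at 25 °C. All heated libraries lay below all those at 25 °C, with a log2 fold change of -1.11 ± 0.17, adjusted p = 1.6e-07; without replicate 2 at 25 °C it was -0.97, under the fold threshold. In wild type after 30 min at 42 °C LCB2 had 207, 189 and 241 CPM, against 337, 407 and 354 CPM at 25 °C, a log2 fold change of -0.79 ± 0.17, adjusted p = 5.3e-05 that also kept the libraries apart but was not called. With library totals it was -1.34 and called, as was the wild-type value after 10 min at 37 °C (-1.19).

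LCB1 (YMR296C, chrXIII:859215-860891, minus strand) encodes the other main subunit. It was called down after 30 min at 42 °C in double-loss cells, with 271, 505 and 361 CPM against 2023, 487 and 1422 CPM at 25 °C (-1.79 ± 0.45, adjusted p = 0.00057). It was also called down after 30 min at 42 °C in Hsf1-depleted cells, with 366, 524 and 511 CPM against 2942, 1083 and 1402 CPM at 25 °C (-1.95 ± 0.45, adjusted p = 0.00018). Heated and unheated libraries overlapped in double-loss cells and were apart in Hsf1-depleted cells. In wild type the difference at that condition was -0.74 ± 0.44, adjusted p = 0.12, not called, but -1.26 and called with library totals.

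The other 4 falls of LCB1 each ended when 1 library was left out. The fall in double-loss cells after 30 min at 37 °C (-1.26 ± 0.44) was -1.15 without heated replicate 1, -0.84 without heated replicate 2 and -0.80 without 25 °C replicate 1, and -0.81 with library totals, and had an adjusted p of 0.15 with the compared libraries fitted alone. In MSN-deleted cells after 10 min at 42 °C (-1.13 ± 0.44) the call ended without any one of the 3 libraries at 25 °C (-1.16, -1.13 and -1.10) and without heated replicates 2 (-0.80) or 3 (-0.89), and stood at -1.95 without heated replicate 1. With the compared libraries fitted alone its adjusted p was 0.096. After 30 min at 42 °C in the same state (-1.12 ± 0.44) it ended without heated replicate 3 (-0.83) or 25 °C replicate 3 (-1.08), and with RLE scaling (-0.99) or DESeq2 (-0.99). In Hsf1-depleted cells after 30 min at 37 °C (-1.35 ± 0.44) it ended without 25 °C replicate 1 (-0.81), the library with 2942 CPM, and without the 5 libraries farthest from their groups (-0.81). A term for the library set added a called fall in MSN-deleted cells after 10 min at 37 °C (-1.10, adjusted p = 0.0077). LCB1 had no call in any of the 20 strain differences, where its log2 fold changes lay between -0.98 and 0.86, but that of double-loss against MSN-deleted cells after 30 min at 37 °C was -1.01 and called with the same term, and that of Hsf1-depleted cells against wild type was -1.14 and called with library totals.

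ORM2 (YLR350W, chrXII:828730-829380, plus strand), whose product binds and restrains serine palmitoyltransferase, had the largest heat rise of the 10 genes in wild type. After 30 min at 42 °C wild type had 3088, 2334 and 2287 CPM, against 85.7, 111 and 87.7 CPM at 25 °C, a 27.1-fold rise (log2 4.76 ± 0.45, adjusted p = 4.0e-13). After 10 min at 42 °C it had 889, 1228 and 1895 CPM (log2 3.82 ± 0.43), and after 10 min at 37 °C 392, 596 and 1339 CPM (log2 3.03 ± 0.41). None of these libraries came down to the range at 25 °C. The 37 °C value after 10 min leaned on replicate 3, without which it was 2.38. Wild type after 30 min at 37 °C had 151, 119.9 and 158 CPM, a log2 fold change of 0.59 ± 0.39, adjusted p = 0.22, not called.

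ORM2 was higher in both states without Hsf1 than in their counterparts after 30 min at 37 °C. Hsf1-depleted cells had 1152, 575 and 519.6 CPM at that time, against 151, 119.9 and 158 CPM in wild type, with no overlap and a log2 difference of 2.39 ± 0.40, adjusted p = 3.0e-06. Double-loss cells had 388, 301 and 443 CPM, against 89.3, 135 and 137 CPM in MSN-deleted cells, again with no overlap (1.65 ± 0.39, adjusted p = 0.00069). At this condition 11.4% of all genes were called higher in Hsf1-depleted cells than in wild type, and 10.2% in double-loss cells than in MSN-deleted cells. Within wild type, ORM2 was lower after 30 than after 10 min at 37 °C (-2.44 ± 0.40, and -1.79 without replicate 3 at 10 min), while in Hsf1-depleted cells the same difference was 0.78 ± 0.38, not called.

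Without MSN2 and MSN4, ORM2 was called lower in 4 of 10 comparisons, and its log2 difference was negative in 9 of them. MSN-deleted cells after 10 min at 37 °C had 239, 263 and 180.0 CPM, against 392, 596 and 1339 CPM in wild type (-1.77 ± 0.39, adjusted p = 0.00042), and -1.12 without wild-type replicate 3. MSN-deleted cells after 30 min at 42 °C had 1077, 1439 and 581 CPM, against 3088, 2334 and 2287 CPM in wild type (-1.32 ± 0.39, adjusted p = 0.0051); without MSN-deleted replicate 3 the difference was -1.03 and not called. Double-loss cells were lower than Hsf1-depleted cells after 10 min at 42 °C, with 773, 715 and 495 CPM against 1875, 2441 and 1219 CPM (-1.48 ± 0.39, adjusted p = 0.0029). They were also lower after 30 min at 42 °C, with 694, 832 and 592 CPM against 1242, 1996 and 1846 CPM (-1.26 ± 0.39, adjusted p = 0.0064). In these 4 comparisons 13.9%, 13.7%, 12.4% and 14.1% of all genes were called lower. The libraries of each of these 4 pairs did not overlap, and with library totals as the scaling the double-loss values were -0.90 and -0.84, under the fold threshold. At 42 °C the rise over 25 °C was still called in all 4 states, with log2 fold changes of 2.58 and 2.67 in double-loss cells, 2.57 and 3.17 in MSN-deleted cells and 3.45 and 3.32 in Hsf1-depleted cells after 10 and 30 min.

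ORM1 (YGR038W), the paralog of ORM2, had no called heat response in any state, with log2 fold changes from -0.98 to 0.70. Per length, ORM2 made up 98.8 ± 0.518% of the pair in wild type after 30 min at 42 °C (SD, n = 3), against 64.3 ± 6.12% at 25 °C. In MSN-deleted cells the shares were 93.99 ± 4.001% and 63.2 ± 4.06%.

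LCB5 (YLR260W, chrXII:665844-667907, plus strand) and LCB4 (YOR171C, chrXV:652010-653884, minus strand) encode the sphingoid base kinases. LCB5 rose at 42 °C in MSN-deleted cells and in wild type, and had no called rise in either state without Hsf1. MSN-deleted cells after 10 min at 42 °C had 121, 167 and 168 CPM, against 28.2, 25.7 and 30.1 CPM at 25 °C, a 5.42-fold rise (log2 2.44 ± 0.20, adjusted p = 1.9e-14). Wild type after 10 min at 42 °C had 113, 107 and 78.02 CPM, against 27.5, 23.9 and 30.6 CPM at 25 °C, a 3.64-fold rise (log2 1.86 ± 0.19, adjusted p = 2.4e-11). Heated and 25 °C libraries were apart in both. The log2 fold changes after 30 min at 42 °C were 2.32 ± 0.20 in MSN-deleted cells and 1.72 ± 0.19 in wild type. At 37 °C they were 1.79 ± 0.19 and 1.001 ± 0.19 after 10 and 30 min in MSN-deleted cells, and 0.96 ± 0.19 and 0.29 ± 0.19 in wild type, the wild-type values not called. The call after 30 min at 37 °C in MSN-deleted cells lay at the threshold, stood just under it under RLE scaling, DESeq2 and a term for the library set, and ended without heated replicate 1 (0.99), heated replicate 3 (0.94) or 25 °C replicate 2 (0.94). The wild-type value after 10 min at 37 °C passed the threshold without heated replicate 3 (1.15) or without 25 °C replicates 1 (1.03) or 3 (1.14), and also with RLE scaling (1.0089), no filter (1.03), DESeq2 (1.0007) and without the 5 libraries farthest from their groups (1.15).

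LCB5 was lower in both states without Hsf1 than in their counterparts at 3 of the 4 heat conditions. Hsf1-depleted cells after 10 min at 42 °C had 26.2, 23.8 and 30.6 CPM, against 113, 107 and 78.02 CPM in wild type, with no overlap and a log2 difference of -1.89 ± 0.20, adjusted p = 1.6e-10, 3.71-fold lower. At 30 min they had 26.2, 19.6 and 16.8 CPM, against 89.1, 93.5 and 87.3 CPM in wild type (-2.10 ± 0.20, adjusted p = 8.3e-12). The difference after 10 min at 37 °C was -1.29 ± 0.19, adjusted p = 2.9e-06 (adjusted p = 0.069 with the compared libraries fitted alone), and after 30 min at 37 °C it was -0.08 ± 0.19 and not called. In this comparison 1.5% of all genes were called lower after 10 min at 42 °C, 3% after 30 min at 42 °C and 1.47% after 10 min at 37 °C.

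Double-loss cells after 10 min at 42 °C had 36.9, 36.6 and 36.5 CPM, against 121, 167 and 168 CPM in MSN-deleted cells (-2.05 ± 0.19, adjusted p = 6.8e-12). At 30 min double-loss cells had 33.04, 31.8 and 29.1 CPM, against 135, 143 and 143 CPM in MSN-deleted cells (-2.17 ± 0.19, adjusted p = 1.2e-12). The difference after 10 min at 37 °C was -1.64 ± 0.19, adjusted p = 3.1e-09 and after 30 min at 37 °C -0.14 ± 0.19, not called. All libraries of the called pairs were apart. The background called lower at these 3 conditions was 2.08%, 3.97% and 1.81%. LCB5 in MSN-deleted cells was above wild type by 0.86, 0.75, 0.61 and 0.64 at the 4 heat conditions, with adjusted p between 0.00037 and 0.013, each under the fold threshold, and 1.11 after 10 min at 37 °C without wild-type replicate 1. In the double-loss state the largest heat difference of LCB5 was 0.97 ± 0.19, adjusted p = 2.7e-05 after 30 min at 37 °C, just under the threshold, and it passed it when any of 5 libraries was left out (1.01 to 1.12).

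LCB4, with the higher level of the pair at 25 °C, had no called rise. It was called down after 30 min at 42 °C in double-loss cells, with 49.4, 56.7 and 56.8 CPM against 133, 143 and 138 CPM at 25 °C (-1.34 ± 0.17, adjusted p = 2.1e-09), and in MSN-deleted cells, with 47.7, 59.9 and 54.5 CPM against 140.4, 152 and 144 CPM (-1.43 ± 0.17, adjusted p = 5.1e-10). The double-loss value was -0.90 with library totals, under the fold threshold. In wild type at this condition the log2 fold change was -0.67 ± 0.17, adjusted p = 0.00044, under the fold threshold, with libraries apart from those at 25 °C, and with library totals it was -1.22 and called. Per length, LCB5 made up 34.4 ± 3.09% of the pair in double-loss cells after 30 min at 42 °C, 70.3 ± 1.81% in MSN-deleted cells, 16.8 ± 4.02% in Hsf1-depleted cells and 45.6 ± 3.32% in wild type (SD, n = 3 each). At 25 °C the same shares were 14.5 ± 1.84%, 14.9 ± 1.39%, 10.7 ± 4.22% and 13.7 ± 1.89% in that order. The feature YOR170W lies across 154 bases of LCB4 on the other strand and had 2 counts in all libraries together.

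**Figure D2:**
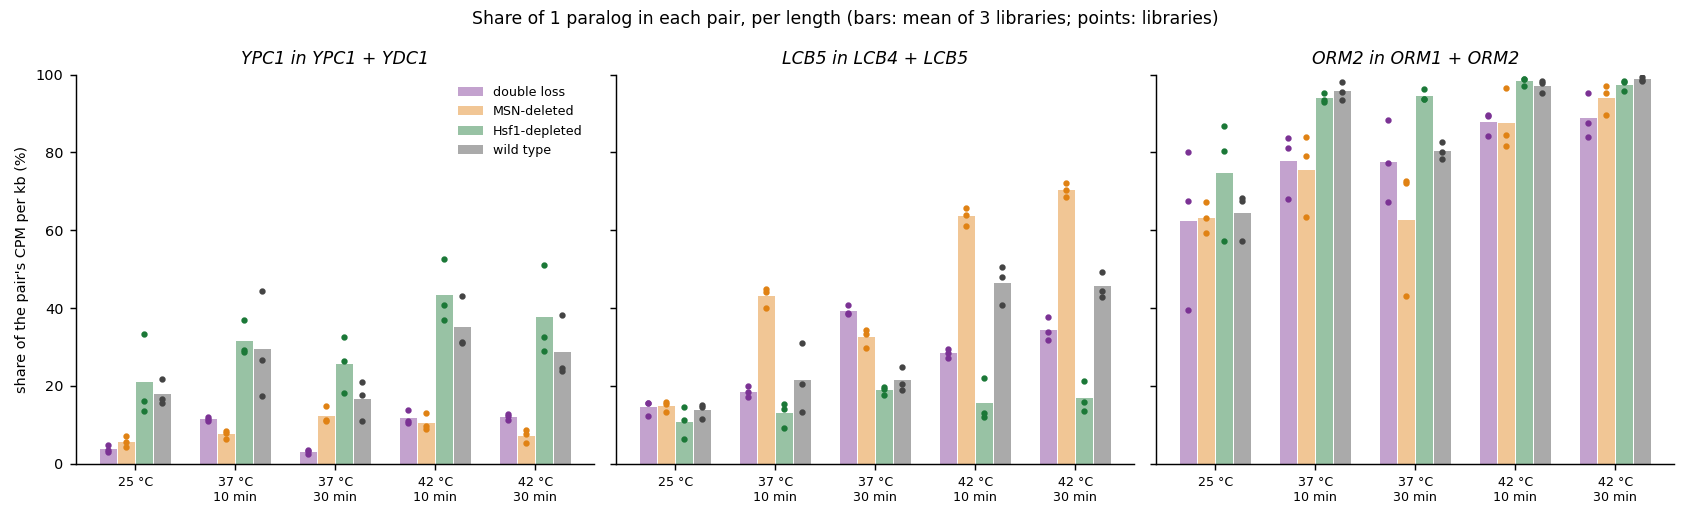
Share of 1 paralog in each of 3 pairs, in percent of the pair's CPM per kb, by condition and strain state (bars are means of 3 libraries, points the libraries). LCB5 reaches 63.6% and 70.3% of its pair in MSN-deleted cells at 42 °C but 15.7% and 16.8% in Hsf1-depleted cells, and YPC1 averages at most 12.4% in double-loss and MSN-deleted cells.

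LCB3 (YJL134W, chrX:158188-159417, plus strand), which encodes a sphingoid base phosphate phosphatase, was called in 1 heat response. Hsf1-depleted cells after 30 min at 37 °C had 56.5, 65.8 and 71.03 CPM, against 163, 119 and 111 CPM at 25 °C, with no overlap and a log2 fold change of -1.02 ± 0.18, adjusted p = 5.3e-06. This call ended without heated replicate 1 (-0.93) or 25 °C replicate 1 (-0.84), without the 5 libraries farthest from their groups (-0.84), and without the filter (-0.97) or with DESeq2 (-0.9994). Set against wild type at the same condition, which had 141, 122.9 and 165 CPM, the same Hsf1-depleted libraries were lower by 2.22-fold (log2 -1.15 ± 0.19, adjusted p = 1.4e-06; background 17.3%), and that call held without each library in turn. The feature YJL135W overlaps LCB3 by 7 bases on the same strand and had 144 counts in all libraries together. YSR3, of the other genes for sphingoid base breakdown and export, was called up in 4 of 16 heat responses and down in 1. Its heat log2 fold changes lay between -1.47 and 2.52, at a median of 62 counts per library.

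DPL1 (YDR294C, chrIV:1050459-1052228, minus strand), the lyase that cleaves sphingoid base phosphates, ranged from 138 to 467 CPM over the 60 libraries. In wild type it had 455, 435 and 427 CPM after 10 min at 37 °C, 360.2, 318 and 379.9 CPM after 30 min at 37 °C, 383, 390.2 and 278 CPM after 10 min at 42 °C and 218, 269 and 228 CPM after 30 min at 42 °C, against 303, 288 and 240.1 CPM at 25 °C. Its largest heat differences were 0.67 ± 0.16, adjusted p = 0.00074 in Hsf1-depleted cells after 10 min at 37 °C and -0.67 ± 0.16, adjusted p = 0.00039 in double-loss cells after 30 min at 42 °C, neither reaching the fold threshold. No strain difference of DPL1 was called. Its log2 difference between 30 and 10 min at 42 °C was -1.01 in double-loss cells, -0.44 in MSN-deleted cells, -0.83 in Hsf1-depleted cells and -0.56 in wild type, with adjusted p of 2.7e-06, 0.033, 5.4e-05 and 0.0055. Of these the double-loss value was called, and it fell under the threshold with RLE scaling, library totals, no filter, a term for the library set and DESeq2 (-0.78 to -0.9995), and without heated replicates 1 (-0.85) or 2 (-0.99) at 30 min or 1 (-0.93) or 2 (-0.84) at 10 min.

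YPC1 (YBR183W, chrII:596115-597065, plus strand), which encodes a ceramidase that acts on phytoceramide, was called up in all 16 heat responses and gave 10 of the 23 lower strain differences of the 10 genes. In wild type it had 124, 172 and 135 CPM after 10 min at 42 °C and 118, 148 and 179 CPM after 30 min at 42 °C, against 13.2, 12.98 and 14.9 CPM at 25 °C, rises of 10.4-fold and 10.8-fold (log2 3.38 ± 0.32 and 3.43 ± 0.32). At 37 °C it had 80.4, 101 and 36.97 CPM after 10 min and 38.9, 37.9 and 25.3 CPM after 30 min (log2 2.397 ± 0.31 and 1.31 ± 0.30). All heated wild-type libraries lay above all those at 25 °C.

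The gene differed without heat as well. At 25 °C MSN-deleted cells had 2.10, 4.11 and 4.28 CPM, against 13.2, 12.98 and 14.9 CPM in wild type, with no overlap and a log2 difference of -1.96 ± 0.34, adjusted p = 0.0008, 3.89-fold lower. Double-loss cells at 25 °C had 1.79, 2.17 and 4.52 CPM, against 7.63, 10.2 and 18.6 CPM in Hsf1-depleted cells, again without overlap (-2.12 ± 0.35, adjusted p = 0.00024; adjusted p = 0.99 with the compared libraries fitted alone). In these comparisons 0.0988% (6 genes) and 0.264% (16 genes) of the 6070 tested genes were called lower, YPC1 among them. The deleted genes MSN2 and MSN4 are themselves among those called lower in both.

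YPC1 was called lower in MSN-deleted cells than in wild type at 3 of the 4 heat conditions. MSN-deleted cells after 10 min at 42 °C had 10.4, 10.02 and 9.85 CPM, against 124, 172 and 135 CPM in wild type, 14.2-fold lower (log2 -3.83 ± 0.32, adjusted p = 2.3e-13; background 8.81%). At 30 min they had 19.5, 14.9 and 19.3 CPM, against 118, 148 and 179 CPM (-3.05 ± 0.31; background 13.7%), and after 10 min at 37 °C 9.91, 11.3 and 7.10 CPM, against 80.4, 101 and 36.97 CPM (-2.94 ± 0.32; background 13.9%). The remaining condition, 30 min at 37 °C, gave 21.98, 14.2 and 19.7 CPM in MSN-deleted cells, against 38.9, 37.9 and 25.3 CPM in wild type, a difference of -0.87 ± 0.30, adjusted p = 0.07 that was not called. The libraries of this pair did not overlap. Double-loss cells were lower than Hsf1-depleted cells at all 4, with differences of -3.20, -3.72, -3.07 and -2.71 after 10 and 30 min at 37 °C and 10 and 30 min at 42 °C (log2, SE 0.30 to 0.33), and all 4 were called, beside 10%, 16.2%, 12.4% and 14.1% of all genes. Heat still raised YPC1 without Msn2 and Msn4, by 2.34 ± 0.34 in MSN-deleted cells and 3.15 ± 0.35 in double-loss cells after 30 min at 42 °C, where MSN-deleted cells had 19.5, 14.9 and 19.3 CPM and double-loss cells 22.9, 27.5 and 25.5 CPM, against 2.10, 4.11 and 4.28 CPM and 1.79, 2.17 and 4.52 CPM at 25 °C.

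Of the 10 comparisons of YPC1 in a state without Hsf1 with its counterpart, 8 were not called. Both exceptions were after 30 min at 37 °C and ran in opposite directions. Hsf1-depleted cells had 56.5, 93.7 and 102 CPM, against 38.9, 37.9 and 25.3 CPM in wild type (1.30 ± 0.29, adjusted p = 0.00025), whereas double-loss cells had 6.65, 4.24 and 8.45 CPM, against 21.98, 14.2 and 19.7 CPM in MSN-deleted cells (-1.55 ± 0.31, adjusted p = 8.1e-05). The libraries were apart in both pairs. At this condition 11.4% of genes were called higher in Hsf1-depleted cells than in wild type and 14.2% lower in double-loss cells than in MSN-deleted cells. The rise of YPC1 over 25 °C in double-loss cells at this condition (1.16 ± 0.36) was not called with the compared libraries fitted alone (adjusted p = 0.12), nor without 25 °C replicate 1 (0.96) or heated replicate 3 (0.93).

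**Figure D3:**
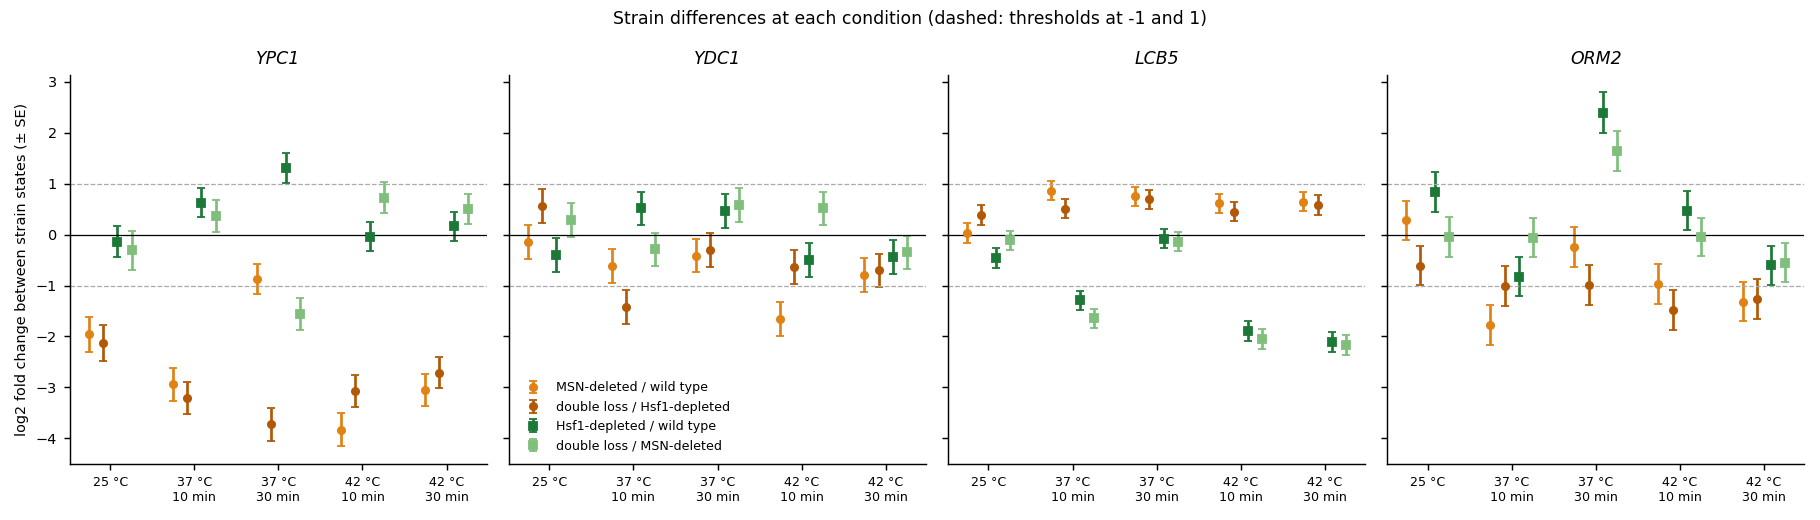
Log2 fold change between strain states (± SE, n = 3 per group) of YPC1, YDC1, LCB5 and ORM2 at each condition, with dashed lines at the thresholds of -1 and 1. For YPC1 both comparisons of deleted with intact MSN2 and MSN4 (circles) lie between -3.83 and -0.87, and for LCB5 both comparisons of depleted with intact Hsf1 (squares) lie between -2.17 and -1.29 at all heat conditions but 30 min at 37 °C.

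YDC1 (YPL087W, chrXVI:383455-384408, plus strand), whose product acts on dihydroceramide, was called up in 12 of 16 heat responses and lower in 2 of 20 strain differences. In wild type after 30 min at 42 °C it had 192, 477 and 554 CPM, against 72.3, 65.1 and 53.7 CPM at 25 °C, a 6.40-fold rise (log2 2.68 ± 0.35, adjusted p = 3.6e-09) with no overlap. Hsf1-depleted cells after 30 min at 42 °C had 421, 167 and 315 CPM, against 39.6, 66.1 and 37.4 CPM at 25 °C (log2 2.65 ± 0.35, adjusted p = 5.5e-09). The heat responses not called were 0.42 ± 0.33 and 0.85 ± 0.33 in double-loss cells after 10 min at 37 °C and at 42 °C, and 0.996 ± 0.33 and 0.62 ± 0.33 in MSN-deleted cells at the same conditions. The wild-type rise after 10 min at 37 °C (1.46 ± 0.34) was 0.97 with library totals, under the fold threshold. The 37 °C value in MSN-deleted cells passed the threshold without 25 °C replicate 3 (1.18), heated replicate 1 (1.04) or heated replicate 3 (1.06), and the 42 °C value in double-loss cells without 25 °C replicate 3 (1.08).

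Both called strain differences of YDC1 were lower values. Double-loss cells after 10 min at 37 °C had 78.8, 109 and 94.4 CPM, against 212, 166 and 374 CPM in Hsf1-depleted cells, with no overlap (-1.42 ± 0.33, adjusted p = 0.0012; -0.99 with library totals, just under the threshold; background 10%). MSN-deleted cells after 10 min at 42 °C had 106, 67.2 and 92.8 CPM, against 273, 382 and 179 CPM in wild type, with no overlap (-1.65 ± 0.34, adjusted p = 0.00019; background 8.81%). None of its 10 comparisons of depleted with intact Hsf1 was called. Per length, YPC1 made up 11.8 ± 1.77% of the ceramidase pair in double-loss cells after 10 min at 42 °C, 10.6 ± 2.15% in MSN-deleted cells, 43.5 ± 8.14% in Hsf1-depleted cells and 35.2 ± 6.95% in wild type (SD, n = 3 each). At 25 °C the shares were 3.72 ± 0.9098%, 5.69 ± 1.49%, 20.98 ± 10.8% and 17.98 ± 3.35% in the same order.

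Over all strain differences, 3 of 200 member values were called higher and 23 lower, beside 6.27% and 6.92% of all tested values. With library totals as the scaling the split was 9 higher and 21 lower, without an all-gene share at that scaling. Double-loss against MSN-deleted cells gave 1 higher and 4 lower of 50 (background 3.57% and 4.48%), and double-loss against Hsf1-depleted cells 0 higher and 8 lower (11.1% and 10.6%). MSN-deleted cells against wild type gave 0 higher and 7 lower (7.26% and 7.88%), and Hsf1-depleted cells against wild type 2 higher and 4 lower (3.14% and 4.69%). Of the 23 lower values 10 belonged to YPC1, 6 to LCB5, 4 to ORM2, 2 to YDC1 and 1 to LCB3. LCB1, LCB2, TSC3, LCB4 and DPL1 had none in either direction.

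The heat response itself was compared with that of wild type in 12 further tests of the difference, which share the wild-type libraries. With library totals they gave 8 positive and 7 negative calls, without an all-gene share at that scaling. In the main fit they gave 2 positive and 14 negative calls of 120 member values (background 5.81% and 8.35%). Of these 16 calls ORM2 gave 5, LCB5 4, LCB1, YPC1 and YDC1 2 each and LCB3 1. The share of all genes with a called negative difference ran from 0.231% to 16.7% over the 12 tests. LCB5 responded less than in wild type at 42 °C in double-loss cells, with differences of -1.36 ± 0.27 and -1.45 ± 0.27 after 10 and 30 min, and in Hsf1-depleted cells, with -1.44 ± 0.27 and -1.65 ± 0.27. YPC1 responded less in MSN-deleted cells after 10 min at 42 °C (-1.87 ± 0.46, adjusted p = 0.004), where YDC1 did too (-1.51 ± 0.47, adjusted p = 0.028), and more in Hsf1-depleted cells after 30 min at 37 °C (1.44 ± 0.42, adjusted p = 0.0079). At the other 3 conditions the YPC1 response of MSN-deleted cells differed from that of wild type by -0.98 ± 0.46, 1.09 ± 0.45 and -1.10 ± 0.45, not called, and the last was -1.35 and called without MSN-deleted 25 °C replicate 1 and -1.24 without wild-type heated replicate 1. The YDC1 value in MSN-deleted cells lost its call without heated replicate 2 (-1.34) or 25 °C replicate 3 (-1.32) of that state, or heated replicate 2 (-1.21) or 25 °C replicate 3 (-1.39) of wild type. LCB5 at 42 °C depended on the scaling: with library totals alone the differences were -0.69 and -0.45 in double-loss cells and -1.15 and -0.86 in Hsf1-depleted cells, none called, and the values in MSN-deleted cells were -1.39 for YPC1 and -1.11 for YDC1, not called. With the compared libraries fitted alone the LCB5 value in Hsf1-depleted cells after 10 min had an adjusted p of 0.087.

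Times and temperatures were also compared, and the members had smaller shares of calls than all tested values. Over 16 comparisons within a state, 13 of 160 member values were called higher and 5 lower (background 13.6% and 12.2%), and 15 higher and 3 lower with RLE scaling. After 30 min, wild type at 42 °C was higher than at 37 °C in ORM2 (4.17 ± 0.43), YPC1 (2.12 ± 0.30), LCB5 (1.43 ± 0.19) and YDC1 (1.201 ± 0.33), and lower in LCB1 (-1.23 ± 0.44). The YDC1 value was 0.92 without replicate 3 at 42 °C and 0.81 with library totals, not called in either, and the LCB1 value was not called without replicate 2 at 42 °C (-1.13) or replicate 1 at 37 °C (-1.06). In double-loss cells the same comparison gave 1.99 ± 0.31 for YPC1, 0.90 ± 0.38 for ORM2 and -0.70 ± 0.19 for LCB5, of which the first was called, and ORM2 was 1.04 and called without replicate 3 at 37 °C. In MSN-deleted cells it gave 3.10 ± 0.41 for ORM2 and 1.32 ± 0.19 for LCB5, the second 0.96 and not called with library totals. In Hsf1-depleted cells ORM2 was the one call, at 1.18 ± 0.39, and it ended without replicates 2 (1.02) or 3 (0.97) at 37 °C.

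After 10 min, ORM2 was higher at 42 °C than at 37 °C in double-loss cells (1.61 ± 0.39), MSN-deleted cells (1.59 ± 0.39) and Hsf1-depleted cells (2.08 ± 0.40), and 0.79 ± 0.38 in wild type, not called. That wild-type value was 1.44 and called without replicate 3 at 37 °C. Between 30 and 10 min, YDC1 was higher at 37 °C in double-loss cells (1.08 ± 0.33, and 0.97 without replicate 3 at 30 min) and at 42 °C in MSN-deleted cells (1.41 ± 0.33). YPC1 was lower at 37 °C in wild type (-1.09 ± 0.29), a call that ended without replicate 3 at 30 min (-0.91) or replicate 2 at 10 min (-0.78), and with library totals (-0.77, adjusted p = 0.092). LCB1 was lower at 42 °C in Hsf1-depleted cells (-1.19 ± 0.44), a call that ended without replicates 1 (-0.92) or 3 (-1.26) at 30 min or 1 (-1.15) or 2 (-1.08) at 10 min, with RLE scaling (adjusted p = 0.059) and with library totals (-0.82).

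Upstream motifs were counted in the 500 bases before each coding start on both strands. A stress response element (CCCCT or AGGGG) was found 3 times before YPC1, 2 times before LCB4 and once each before LCB1, TSC3, DPL1 and YDC1. At least 2 were found in 8.14% of windows. Pairs of inverted heat shock units (GAANNTTC or TTCNNGAA) were found 2 times before YDC1 and once each before LCB2, LCB4 and LCB3, with at least 1 in 35.1% of 5986 windows. A run of 3 units (GAANNTTC followed by NNGAA, or TTCNNGAA followed by NNTTC) was found before none, against 1.49% of windows. A gapped direct pair (GAA and GAA, or TTC and TTC, with NNNNNNN between them), present in 49.1% of windows, was found 3 times before YDC1 and once each before TSC3, LCB5, LCB3 and DPL1. A further motif, GNGGCGCA or GNGGCTCA on either strand, was found once before TSC3 and is not drawn. At least 1 was present in 3.73% of windows. None of these letters was found before ORM2. The windows of TSC3, LCB4, DPL1 and YDC1 hold 206, 175, 106 and 39 bases of a neighbouring coding sequence. The LCB4 stress response element that begins 489 bases before the coding start and the DPL1 element that begins 411 bases before it lie in such bases. A match describes letters in the reference strain's sequence and not a bound site, and the W303 sequence was not used here.

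**Figure D4:**
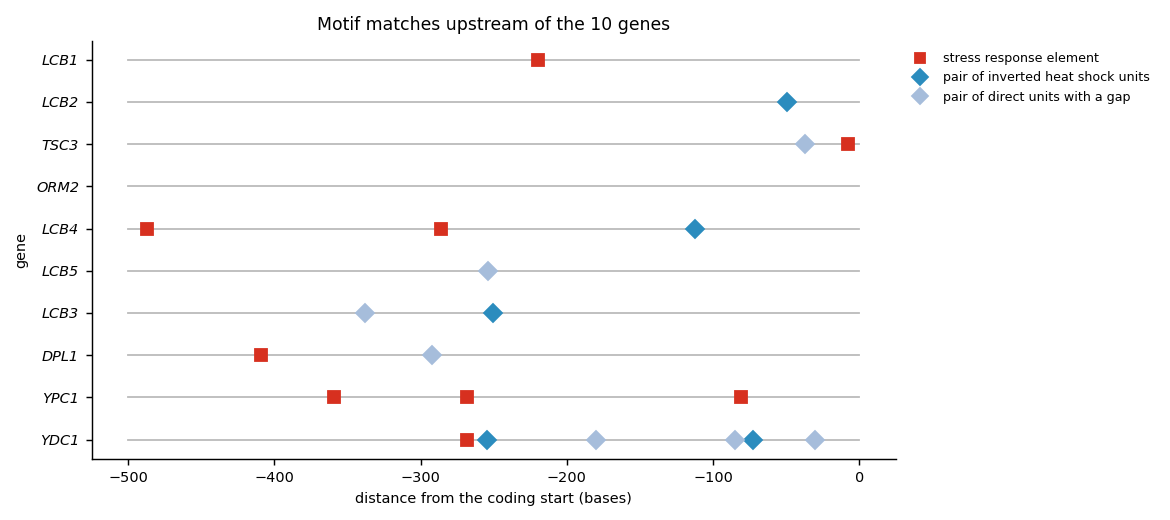
Position of stress response elements and of inverted and gapped pairs in the 500 bases before the coding start of each of the 10 genes. The x axis is the distance from the coding start in bases. YPC1 carries 3 stress response elements and no heat shock motif, YDC1 carries 1 stress response element, 2 inverted pairs and 3 gapped pairs, and ORM2 has no match.

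Of 31 other genes of the sphingolipid pathway, chosen as a list by function, 107 of 496 heat values were called up and 80 down. By state these were 13 up and 27 down of 124 in double-loss cells, 12 and 16 in MSN-deleted cells, 40 and 24 in Hsf1-depleted cells and 42 and 13 in wild type, against the same backgrounds as given for the 10 genes. The genes with the largest rises were RSB1, which encodes an exporter of sphingoid bases, SUR1, a subunit gene of mannosyl-inositolphosphorylceramide synthase, and YPK2, which encodes a kinase of the sphingolipid signalling pathway. RSB1 had 153, 372 and 325 CPM in wild type after 10 min at 42 °C, against 1.56, 3.24 and 4.97 CPM at 25 °C (log2 6.37 ± 0.46). SUR1 rose at 42 °C in all 4 states, with log2 fold changes after 10 min of 3.44 in double-loss cells, 3.14 in MSN-deleted cells, 3.78 in Hsf1-depleted cells and 4.02 in wild type. YPK2 after 30 min at 42 °C was called down in double-loss cells (-1.23 ± 0.28) and MSN-deleted cells (-1.499 ± 0.29) and up in Hsf1-depleted cells (2.38 ± 0.28) and wild type (2.75 ± 0.28).

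Falls among the other genes were led by the fatty acid elongase genes ELO2 and ELO3 and by AUR1 and KEI1, the subunit genes of inositolphosphorylceramide synthase. LAG1, a ceramide synthase gene, was also among them. ELO3 after 30 min at 42 °C had 19.4, 19.98 and 16.7 CPM in wild type, against 626, 566 and 387 CPM at 25 °C (log2 -4.81 ± 0.44), and its log2 fold change was -3.26 ± 0.40 in double-loss cells, -2.93 ± 0.40 in MSN-deleted cells and -4.94 ± 0.44 in Hsf1-depleted cells. AUR1 was called down in 14 of 16 heat responses, with log2 fold changes from -2.07 to -0.72 over all 16. LAG1 was called down after 30 min at 42 °C in all 4 states, with log2 fold changes of -2.22, -2.65, -1.45 and -2.47 in double-loss, MSN-deleted, Hsf1-depleted and wild-type cells. LAC1 and LIP1, also listed under ceramide synthase, did not follow LAG1. Over the 16 heat responses LAC1 was called up in 1 and down in 0, and LIP1 up in 2 and down in 1.

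**Figure D5:**
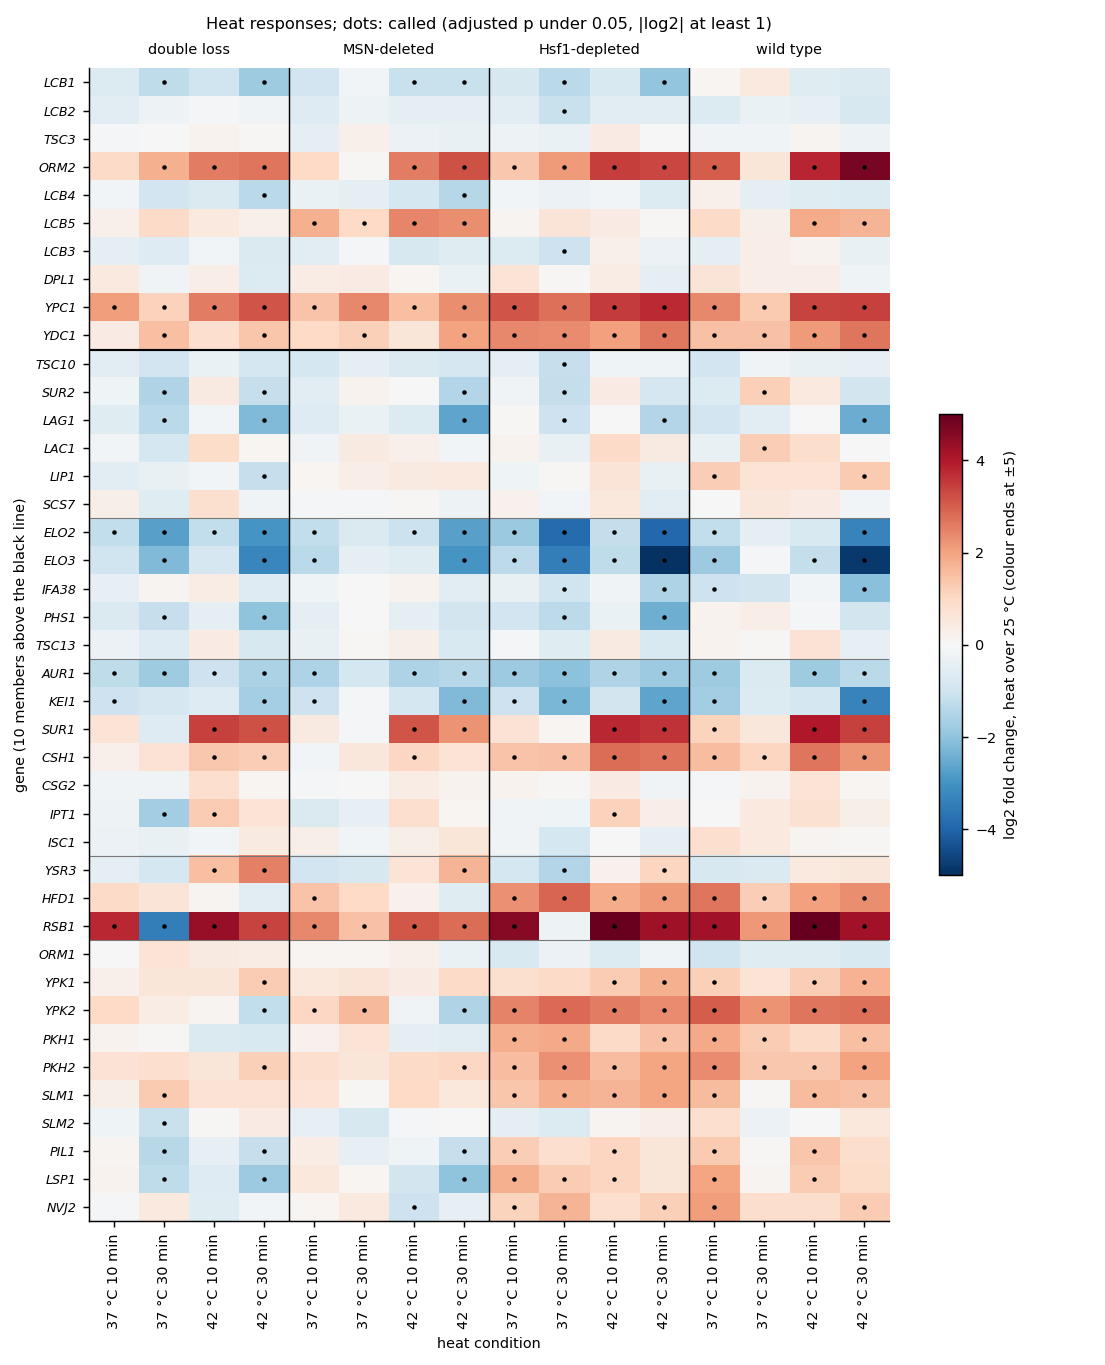
Log2 fold change of heat over 25 °C for the 10 genes (above the black line) and 31 other sphingolipid genes, in 4 strain states and 4 heat conditions; dots mark called values and colour ends at ±5. YPC1 is called up in all 16 columns and ORM2 in 12, LCB5 is called up in MSN-deleted cells and wild type alone, and AUR1 is called down in 14. RSB1 in double-loss cells after 30 min at 37 °C rests on 1 or 2 counts per library.

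The patterns of the 10 genes over the 20 group means (log2 CPM) were set beside those of the 4499 named genes with a mean log2 CPM of at least 3. YPC1 was most like BDH1 (0.97), IRC9 (0.97) and YAK1 (0.96) by Pearson correlation, LCB5 most like LST8 (0.93), FES1 (0.93) and BTN2 (0.92), ORM2 most like MSN1 (0.97), VHS1 (0.96) and MFG1 (0.95) and YDC1 most like CSC1 (0.96), GPM2 (0.94) and SYM1 (0.94). These are descriptions over 20 points that share libraries and scaling. LCB1 was most like GDS1 (0.93), NCP1 (0.93) and ICE2 (0.93), LCB2 most like PRO1 (0.93), UTP6 (0.93) and SNL1 (0.91) and LCB4 most like HHO1 (0.96), IRC8 (0.95) and BAT2 (0.94). DPL1 was most like CDC1 (0.91), SDH3 (0.90) and GOS1 (0.89) and LCB3 most like MIG2 (0.86), MCH5 (0.84) and TSC10 (0.81). TSC3 had the lowest correlations, with LCB3 (0.67), SWI1 (0.58) and MCH5 (0.58). With library totals as the scaling, all 3 neighbours of YPC1 and of LCB1 were again their nearest, 2 of those of YDC1 and of LCB3, 1 of those of ORM2, LCB4 and DPL1, and 0 of those of LCB5, LCB2 and TSC3.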

How the data were processed

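Poly(A) RNA was sequenced as 50 bp single reads after library preparation with a Lexogen SENSE mRNA-Seq kit, per the labels' protocols. The authors deposited raw read counts per gene for each library. The submitters' processing notes name bcl2fastq 1.8.4, featureCounts 2.0.0, DESeq2 1.28.1, DESeq and build R64, and the file headers point to contextmap alignments of trimmed reads. Whether strand was used in counting is not given in the sources used here. A deposited table of the authors' comparisons was left aside. Locus tags placed 6048 of 7126 features on R64, the rest holding 0.459% of all counts.

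Genes were filtered with filterByExpr (6070 kept, 1056 removed). One model over all 60 libraries (edgeR 4.0.16 in R 4.3.3) had a mean for each of the 20 groups, TMM factors and the two-sided quasi-likelihood F test. Adjustment was by Benjamini-Hochberg within each of 64 comparisons (16 heat, 20 strain, 12 response differences, 16 time or temperature). Log2 fold changes carry SE and CPM carry SD. Whether the libraries of 2 groups overlapped is a description of the points, and it was not counted over all genes. A library floor of 3 counts equals 0.296 to 0.78 CPM of the unscaled totals, which covers counting error only. Motifs were read with Biopython 1.88 in Python 3.11.15.

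The members, the other sphingolipid genes and the comparisons were chosen with earlier results of these data known. Named are all members, HSF1, MSN2 and MSN4, and the 3 genes most like each member. The other genes named were drawn from up to 3 called rises and 3 called falls per heat response, and not all of these are named. Outside this rule ORM1 is named as the paralog of ORM2, SIS1 as a check, and genes in the closing observations by their values. YSR3, LAC1 and LIP1 are named beside LCB3 and LAG1, and were added with their values known. Alternatives were RLE scaling, library totals, no filter, the replicate block, the library set as a term, DESeq2 1.42.0, the compared libraries alone, an adjusted p under 0.01, no fold threshold and leaving out each library. A fit lacking the 5 most distant libraries was added after seeing the data. Whether replicates were separate cultures is not in the labels, and the spread behind each p-value may therefore be technical. No pair of libraries in a group was a duplicate (chi-square per degree of freedom 8.92 to 228).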

Additional observations from a re-analysis of the deposited data

Results flagged for a closer look

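A heat response was picked out where it differed from that of wild type by the test of the difference itself (edgeR quasi-likelihood test, adjusted over 6070 genes, n = 3 per group, log2 ± SE). For LCB5 the response at 42 °C was smaller, with differences of -1.36 ± 0.27 after 10 min and -1.45 ± 0.27 after 30 min in double-loss cells, and of -1.44 ± 0.27 and -1.65 ± 0.27 in Hsf1-depleted cells. All 4 lost their call with library totals, at -0.69 and -0.45 in double-loss cells and -1.15 and -0.86 in Hsf1-depleted cells. With the compared libraries fitted alone the 10 min value in Hsf1-depleted cells had an adjusted p of 0.087. Called negative differences made up 7.92% and 14.9% of all genes in double-loss cells after 10 and 30 min at 42 °C. In Hsf1-depleted cells they made up 1.05% and 2.6%. For ORM2 it was also smaller, with differences of -2.07 ± 0.55 after 10 min at 37 °C and -2.09 ± 0.55 after 30 min at 42 °C in double-loss cells, and of -2.05 ± 0.55 and -1.59 ± 0.54 in MSN-deleted cells. In these comparisons 13.2% and 14.9% of all genes had a called negative difference in double-loss cells, and 9.79% and 11% in MSN-deleted cells. Without wild-type replicate 3 after 10 min at 37 °C, the 37 °C values of ORM2 were -1.41 and -1.40 and not called. The ORM2 value in MSN-deleted cells at 42 °C was not called without heated replicate 3 (-1.31) or 25 °C replicate 2 (-1.40) of that state, or without 25 °C replicate 1 (-1.51) or heated replicate 1 (-1.44) of wild type.

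In Hsf1-depleted cells after 30 min at 37 °C the response of ORM2 was larger, with a difference of 1.55 ± 0.55, as was that of YPC1 (1.44 ± 0.42), while those of LCB3 (-1.37 ± 0.26) and LCB1 (-1.84 ± 0.62) were lower. Their heat log2 fold changes at this condition were -1.02 and -1.35 in Hsf1-depleted cells, both called, against 0.35 and 0.49 in wild type, neither called. Of all genes, 7.89% had a called positive response difference in Hsf1-depleted cells at this condition and 14.8% a called negative one. The ORM2 value lost its call without heated replicate 1 (1.10) or 25 °C replicates 2 (1.25) or 3 (1.42) of Hsf1-depleted cells, or wild-type 25 °C replicate 2 (1.43). The LCB1 value lost it without Hsf1-depleted 25 °C replicate 1 (-1.29) or heated replicate 3 (-1.75), or wild-type heated replicate 1 (-1.67) or 25 °C replicate 3 (-1.43). In double-loss cells the LCB1 response at this condition differed by -1.75 ± 0.62, and it lost its call when any of 7 libraries was left out (-1.29 to -1.70) or the compared libraries were fitted alone (adjusted p = 0.12). In that comparison 16.7% of all genes had a called negative difference.

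After 10 min at 42 °C in MSN-deleted cells, the response of YPC1 differed by -1.87 ± 0.46 and that of YDC1 by -1.51 ± 0.47 (background 6.59% negative). With library totals these were -1.39 (adjusted p = 0.081) and -1.11 (adjusted p = 0.12), and the YDC1 value also lost its call when any of 4 libraries was left out (-1.21 to -1.39). In double-loss cells after 30 min at 42 °C that of YDC1 differed by -1.28 ± 0.47, and it lost its call without 25 °C replicate 3 of that state (-1.05) or heated replicates 2 (-1.15) or 3 (-0.999) of wild type. With library totals as the scaling it was -0.28 (adjusted p = 0.63). In that comparison 14.9% of all genes had a called negative difference in the main fit.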

How the results depend on the processing

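Of 116 called member values, 79 kept their call in every alternative run other than the adjusted p under 0.01, 37 lost it in at least 1, and 0 changed sign. The counts below are of listed genes alone, because the all-gene shares given above belong to the main fit and its thresholds. Leaving out each library in turn gave 45 to 51 heat rises and 8 to 11 heat falls, 3 to 4 higher and 23 to 27 lower strain differences, 1 to 3 positive and 11 to 18 negative response differences, and 12 to 16 higher and 3 to 7 lower time and temperature differences, with 104 to 114 rises and 73 to 84 falls of the other genes. With no fold threshold there were 37 heat falls (10 as reported), 14 higher and 36 lower strain differences (3 and 23), 5 positive response differences (2), and 30 higher and 37 lower time and temperature differences (13 and 5). An adjusted p under 0.01 left 1 positive and 9 negative response differences and 3 lower time and temperature differences, and RLE scaling also left 3 of the last. Library totals gave 9 higher strain differences and 8 positive and 7 negative response differences, and they moved the median of all genes by up to 1.01 on the log2 scale, to which changes are relative. Without the 5 libraries farthest from their groups there were 24 negative response differences (14). With the replicate block the counts were 47 and 10 for heat, 3 and 23 for strain, 2 and 14 for response differences and 14 and 6 for time and temperature. Same-numbered libraries had a median correlation of deviations of 0.033, with 239 of 570 pairs over 0.1. For other numbers the median was -0.002, with 410 of 1140 pairs over 0.1. Of 60 libraries, 30 were closest to their own number, more than an even split among 3 numbers would give. The numbers were not taken to pair samples in the main fit, but these values do not exclude a pairing. Libraries of one set code deviated together more, with a median correlation of 0.223 and 181 of 270 pairs over 0.1, against -0.120 between sets of one MSN background. A term for the set gave 47 and 11 calls for heat, 3 and 17 for response differences and 16 and 5 for time and temperature, and it cannot be added between MSN backgrounds. The cause of these changes was not tested. Among the 10 genes depth limits YPC1 most, with as few as 8 counts in a library.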

Other observations

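Several other sphingolipid genes differed by MSN background in heat. YPK2 after 30 min at 42 °C had a log2 fold change of -4.10 in double-loss against Hsf1-depleted cells and -4.49 in MSN-deleted cells against wild type. The aldehyde dehydrogenase gene HFD1, whose product acts in the breakdown of sphingoid base phosphates, gave -2.47 and -2.68 in the same comparisons, and CSH1, the paralog of SUR1, -1.64 and -1.62. ELO3 was higher by 1.89 and 2.02, and KEI1 by 1.23 and 1.06. In these comparisons 14.1% and 13.7% of all genes were called lower and 19.2% and 18.2% higher.

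ORM1 was called higher in 6 of 20 strain differences, all of deleted against intact MSN2 and MSN4, by 1.18, 1.42, 1.57 and 1.04 in double-loss cells against Hsf1-depleted cells at the 4 heat conditions, and by 1.44 and 1.21 in MSN-deleted cells against wild type after 10 min at 37 °C and at 42 °C. Of all genes, 4.42% and 22.2% were called higher in double-loss than in Hsf1-depleted cells after 10 and 30 min at 37 °C. At 42 °C these shares were 9.79% and 19.2%. In MSN-deleted cells against wild type 10.1% were called higher after 10 min at 37 °C and 6.99% after 10 min at 42 °C. After 30 min at 37 °C the fatty acid elongase genes ELO2 and ELO3 were lower in double-loss cells than in MSN-deleted cells (log2 -1.81 and -1.45) and in Hsf1-depleted cells than in wild type (-2.78 and -3.17), where 14.2% and 17.3% of all genes were called lower. These genes were chosen here with their values in view, as log2 fold changes with n = 3 per group.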
